A study of Danio rerio with 8 samples.

Results

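The regions described here are the widest stretches of accessible chromatin found in whole zebrafish embryos with and without p63. They were selected on peak width: peaks of 4 ATAC-seq lists were joined into union regions wherever they shared at least 1 bp, and a region was kept when a single peak of any list measured 800 bp or more. This left 2562 wide regions of 133688 union regions on chromosomes 1 to 25, and of 137841 regions in all. The part of chromosome 4 from 30 Mb on, the unplaced scaffolds and the mitochondrial genome were set aside. All positions are in the GRCz10 assembly, 1-based.

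The embryos were of the AB/Tübingen strain, either wild-type (WT) or homozygous for a 4-bp deletion in tp63 (tp63 -/-) that leads to a premature stop codon. Each genotype was assayed at 8 somites and at 36 h post-fertilization (hpf). At 8 somites each library came from a single embryo of tp63 +/- parents, genotyped after the transposase reaction, and at 36 hpf from a pool of embryos. The amount of starting material therefore differs between the stages and cannot be told apart from the stage. Every group had 2 replicate libraries, and these were combined into 1 deposited list by the irreproducible discovery rate (IDR), which keeps peaks found at similar strength in both replicates. With 1 list per group there is no replicate error on any value below, and no difference between lists was tested. The intervals given are 95% intervals over peaks or regions and cover counting error only. Whole embryos were used, so the cell types that carry a region are not known, and fewer cells of a type and less accessibility per cell cannot be told apart.

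ATAC-seq marks open chromatin through the Tn5 transposase, which inserts where DNA is not wrapped in nucleosomes. Enhancers usually give short accessible stretches over the space of a displaced nucleosome, while promoters of active genes and clusters of neighbouring enhancers can give longer ones. p63, a transcription factor of the p53 family, is a main regulator of the epidermis and is known to bind enhancers in closed chromatin. The comparison of the lists asks whether the long accessible stretches of the embryo keep their presence, width and strength when p63 is missing. Read counts per library were not used here. The paper gives a nominal read yield for each instrument, but the depth behind each list is not known. The libraries were sequenced on either of 2 instruments, and which library ran on which is not given in the sources used here. The part of instrument and depth in the widths was not tested.

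Wide peaks were a small upper part of each list, and the mutant list at 36 hpf held the most. In that list 1614 of 74532 peaks on the chromosomes studied were wide (2.17%). WT at 36 hpf had 1041 of 82347 (1.26%). WT at 8 somites had 1077 of 93819 (1.15%), and the mutant at 8 somites the fewest, 624 of 77488 (0.805%). The order of the lists therefore turned between stages, with fewer wide peaks in the mutant than in WT at 8 somites and more at 36 hpf. The width of all peaks went the same way, with medians of 325 bp in WT and 316 bp in the mutant at 8 somites, and 320 bp and 345 bp at 36 hpf. One fixed minimum of 800 bp thus lay at a different height of each list: the 99th percentile of width was 816 bp in WT and 774 bp in the mutant at 8 somites, and 827 bp and 904 bp at 36 hpf.

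Among themselves the wide peaks were mostly just past the minimum. Their median width was 883 bp in WT and 874.5 bp in the mutant at 8 somites, and 884 bp and 892 bp at 36 hpf. Peaks of 1000 bp or more numbered 186, 99, 215 and 368 in WT at 8 somites, the mutant at 8 somites, WT at 36 hpf and the mutant at 36 hpf, in that order. Peaks of 1500 bp or more numbered 6, 2, 6 and 10. No edge in the distribution set the wide regions apart, since 373 regions had their widest peak between 800 and 819 bp and 401 between 780 and 799 bp. The 3 regions just inside the minimum, on chromosomes 10 and 11, had widest peaks of 800 bp, and the 3 just outside, on chromosomes 10, 13 and 15, of 799 bp.

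The single widest peak of the 4 lists lay at chr7:2625451-2628285. It measured 2071 bp in WT at 36 hpf. At that stage the mutant had a pair of peaks in the region, of 440 and 956 bp. The wider one ran from 2627330 to 2628285, mostly past the end of the WT peak at 2627521. At 8 somites the mutant had a peak of 636 bp and WT none. This region was wide but weak: its strongest peak stood at 73.2% of the WT list at 36 hpf, where 0% is the strongest peak and 100% the weakest by −log10 p, at 86.1% of the mutant list at 36 hpf and at 93.5% of the mutant list at 8 somites.

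At chr18:26100155-26102357 the widest peak was 1679 bp in WT at 8 somites, 667 bp in the mutant at 8 somites, 504 bp in WT at 36 hpf and 2006 bp in the mutant at 36 hpf. The lists divided the same stretch differently: it held 2 peaks in WT at 8 somites, 3 in the mutant at 8 somites, 3 in WT at 36 hpf and a single one in the mutant at 36 hpf. This region had the largest gain of width in the mutant at 36 hpf (1502 bp), and its loss in the mutant at 8 somites (−1012 bp) was among the 3 largest. A region on chromosome 2 (chr2:55589127-55590889) measured 1655 bp in WT and 1737 bp in the mutant at 8 somites. At 36 hpf its widest peak was 617 bp in WT, beside another peak 599 bp away, and 1096 bp in the mutant. The region was thus wide in both genotypes at the earlier stage, and at the later one in the mutant only, with a shorter peak than before. The mutant peak at 36 hpf began at 55589779, and the part before it held a peak in WT alone at that stage (55589127-55589673).

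A further region, chr15:509396-511061, kept its width more evenly. Its widths were 1629 bp in WT and 1445 bp in the mutant at 8 somites, and 1392 bp and 1404 bp at 36 hpf. The strongest peak there was within the first 7% of every list, at ranks 2874, 5529, 2177 and 4183 in the same order. The other very wide regions varied more. At chr2:56006106-56007850 the widest peak measured 1266 bp and 868 bp in WT and mutant at 8 somites, and 1671 bp and 999 bp at 36 hpf. It was wide in all lists, and narrower in the mutant at each stage. The lists also divided this stretch differently. At 8 somites a second peak measured 450 bp in WT and 772 bp in the mutant. At 36 hpf WT had a single peak, while the mutant had further peaks of 265 and 421 bp, with gaps of 32 and 23 bp. At chr23:2193235-2195086 the widest peaks were 509 bp in WT and 897 bp in the mutant at 8 somites, and 1526 bp and 1776 bp at 36 hpf. The 2 peaks at 8 somites did not overlap, lying at 2194578-2195086 in WT and at 2193364-2194260 in the mutant. At the place of the mutant peak WT had a peak of 398 bp. The stretch held 2 peaks in WT and 3 in the mutant at 8 somites, and 2 and 1 at 36 hpf. The region chr25:27231980-27233610 was long at the later stage in both genotypes, with 1586 bp in WT and 1631 bp in the mutant, whereas at 8 somites the mutant had a peak of 306 bp and WT had none. At chr14:23979961-23981545 the widest peak at 8 somites was 939 bp in WT and 1549 bp in the mutant. At 36 hpf it was 782 bp and 1483 bp, so it was wider in the mutant at each stage. WT had 2 peaks there at 8 somites and 3 at 36 hpf. At chr2:59375597-59377332 the widths were 1189 bp in WT and 481 bp in the mutant at 8 somites, where the mutant had 3 peaks. At 36 hpf they were 1276 bp and 1715 bp.

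**Figure D1:**
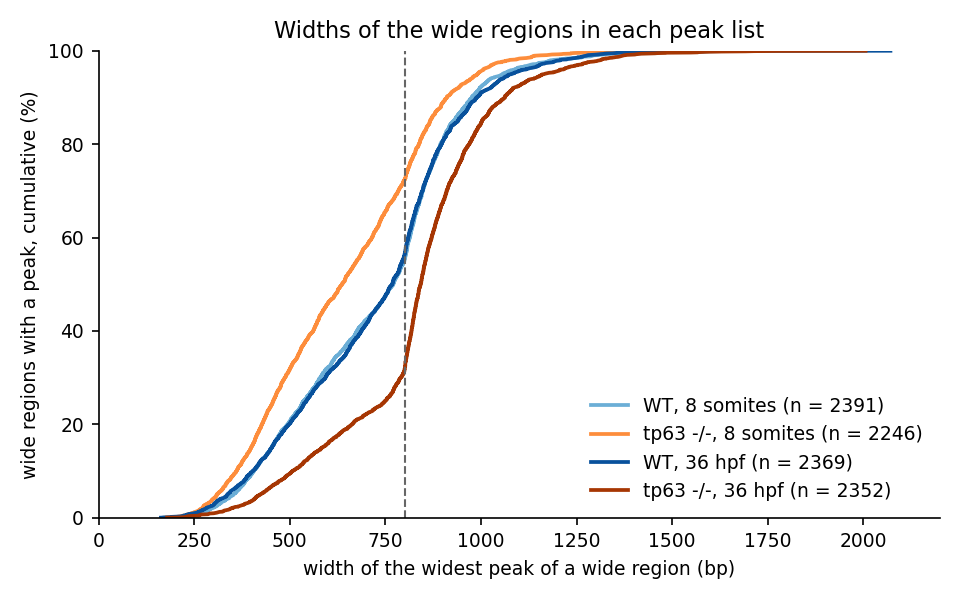
Cumulative share of wide regions (vertical axis, percent of the regions with a peak in the list) against the width of the widest peak in the region (horizontal axis, bp), 1 line per list, with the 800-bp minimum as a dashed line. The mutant line at 8 somites lies to the left (median 636 bp) and the mutant line at 36 hpf to the right (median 842 bp) of the WT lines (medians 770 bp and 768 bp), and the step at 800 bp is made by the choice of regions.

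Most wide regions were open in all 4 groups. A peak of any width was listed in all 4 lists for 2006 of the 2562 regions (78.3%, interval 76.7 to 79.9%), in 3 lists for 291, in 2 for 196 and in 1 for 69. The background was 30.7% of all regions on these chromosomes with a peak in all 4 lists. A wide region offers more bases for an overlap and is stronger than most, so regions of like strength were set beside it. Other regions, weighted to the same deciles of best rank as the wide ones, had a peak in all 4 lists in 67.0% of cases. When a list was counted only if one of its peaks covered the summit of the strongest peak of the region, 1943 wide regions (75.8%) and 66.8% of the other regions of like rank were covered in all lists. The gap in presence was thus narrower than the raw shares give, and it was present in each of the first 7 deciles: 98.9% of wide and 95.9% of other regions in decile 1, 80.9% and 59.0% in decile 3, and 36.4% and 18.9% in decile 5. A region with a peak in more lists also had more chances to reach 800 bp in 1 of them. Neither the weighting nor the summit count removes this, so the remaining gap cannot be told apart from the choice of regions.

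By group, 2391 wide regions had a peak in WT at 8 somites (93.3%), 2246 in the mutant at 8 somites (87.7%), 2369 in WT at 36 hpf (92.5%) and 2352 in the mutant at 36 hpf (91.8%). Over all regions the shares in the same order were 69.2, 56.9, 60.4 and 54.9%. The mutant list at 8 somites missed the most wide regions, 316, whereas over all regions the mutant list at 36 hpf missed the most. By the rule, a list has a peak in every region it made wide. These were 1076 and 623 regions in WT and mutant at 8 somites, and 1041 and 1613 at 36 hpf. The numbers present or missed, and the patterns below, therefore depend on that choice. Of the wide regions with 1 list missing, 130 were absent from the mutant at 8 somites, 63 from the mutant at 36 hpf, 57 from WT at 36 hpf and 41 from WT at 8 somites. The same patterns counted 6388, 5606, 4131 and 2811 over all regions, so the order was that of the lists as wholes. A peak at 36 hpf alone, in both genotypes, was found for 80 wide regions, and at 8 somites alone, in both genotypes, for 62, while over all regions these patterns counted 7802 and 10941, in the opposite order. Presence in WT at both stages and in the mutant at neither was found for 19 regions, and the reverse for 6. Over all regions the last 2 patterns counted 3754 and 1175.

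Although the regions were shared, their great width mostly was not. Of the 2562 regions 1462 (57.1%, interval 55.1 to 59.0%) reached 800 bp in 1 list only, 598 (23.3%) in 2 lists, 313 (12.2%) in 3 and 189 (7.38%) in all 4. Of the 1462 regions wide in 1 list, 1023 (70.0%) had a narrower peak in each of the other 3 lists. A region wide in a single list was therefore mostly an accessible site of all groups that passed the minimum in one of them. The single list was the mutant at 36 hpf for 702 regions, WT at 8 somites for 354, WT at 36 hpf for 284 and the mutant at 8 somites for 122.

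These numbers follow the height of the minimum in each list. When the widest 1.33% of each list were taken instead, with minima of 781, 741, 794 and 863 bp in the same order of groups as above, 2575 regions were chosen. Those wide in 1 list only were then 431 for WT at 8 somites, 349 for the mutant at 8 somites, 351 for WT at 36 hpf and 323 for the mutant at 36 hpf. The excess of the mutant list at 36 hpf was no longer seen. This cut takes the fewest peaks, 993, from that list because it is the shortest, so the loss of the excess follows from the setting. Pairs of lists then fell by stage: 214 regions were wide in both genotypes at 8 somites alone and 176 in both at 36 hpf alone, against 88 in WT alone at both stages and 37 in the mutant alone at both stages. All 4 lists shared 192 regions. With the fixed minimum the pair of both genotypes at 36 hpf had 257 regions and the pair at 8 somites 89, the latter fewer than the 140 wide in WT at 8 somites and the mutant at 36 hpf.

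For the 2006 regions with a peak in all lists, the widest of the 4 peaks was a median of 1.81 times the narrowest. In 786 of them (39.2%) the widest was at least 2 times the narrowest, compared with 6.96% of the 39035 other regions with 4 peaks. Both the numerator and the choice of regions rest on the widest peak, so this contrast describes the selection and was not tested. The regions wide in all 4 lists were the most even, with a median of 877 bp for the narrowest and 979 bp for the widest list. They also ranked highest on average: the median of the mean rank was at 14.0% of the lists for regions wide in 4 lists, 16.5% for 3, 18.7% for 2 and 21.2% for 1.

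Wide peaks chosen in one list were next followed into the list of the other genotype at the same stage. Of 1077 wide WT peaks at 8 somites, 380 met a wide peak in the mutant (35.3%), 435 met 1 narrower peak, 173 met 2 or more narrower peaks, and 89 met none (8.26%). Over all WT regions at 8 somites, wide or not, 33.3% had no peak in the mutant. In the other direction, 624 wide mutant peaks met 380 wide WT peaks (60.9%), 147 single narrower peaks and 80 groups of narrower peaks, and 17 met none (2.72%), beside 18.9% over all mutant regions. In both directions, a wide peak without a wide counterpart therefore mostly met narrower peaks. A peak was absent less often than at an average region, which was also weaker. Choosing peaks on a high width in a list lowers, on average, the width read in a second list. These shares, and those that follow for the other pairs of lists, therefore cannot tell a loss of width apart from the choice of peaks.

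At 36 hpf, with the fixed minimum, the direction of the shares turned. Of 1041 wide WT peaks, 657 met a wide peak in the mutant (63.1%), 238 met 1 narrower peak, 93 met several and 53 met none (5.09%), where the share over all WT regions at this stage was 28.1%. Of 1614 wide mutant peaks 657 met a wide WT peak (40.7%), 623 met 1 narrower peak, 280 met several, and 54 met none (3.35%), where the share over all mutant regions was 20.9%. At each stage the list with more wide peaks had the lower share met, since the shared number is the same for both. With the same top share of each list in place of 800 bp, the shares were 44.5% and 53.9% at 8 somites and 46.3% and 51.0% at 36 hpf, for WT and mutant peaks respectively. The share of WT peaks was then the lower one at both stages, so the turn was gone and the order at 36 hpf was reversed. This order was fixed by the setting, since the same share of a longer list gives more peaks. The cut left 1251 peaks in WT and 1034 in the mutant at 8 somites, and 1094 and 993 at 36 hpf. The loss of the turn therefore says nothing on the genotypes.

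Between the stages, 39.6% of the wide WT peaks of 8 somites met a wide WT peak at 36 hpf and 40.9% the other way. In the mutant 55.9% of the wide peaks of 8 somites met a wide peak at 36 hpf, and 21.6% the other way. For each of the 4 lists, absence was more frequent between stages than between genotypes: 10.96% of the wide WT peaks of 8 somites had no peak in WT at 36 hpf, 9.62% of the wide mutant peaks of 8 somites had none in the mutant at 36 hpf, and 10.8% of the wide mutant peaks of 36 hpf had none in the mutant at 8 somites. For the wide WT peaks of 36 hpf the share was 7.40% across stages and 5.09% across genotypes, the smallest gap of the 4. All regions, wide or not, had the same direction in each list: across stages 38.6% of WT regions of 8 somites, 35.4% of mutant regions of 8 somites, 33.0% of mutant regions of 36 hpf and 29.6% of WT regions of 36 hpf had no peak, each above the share across genotypes given before.

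**Figure D2:**
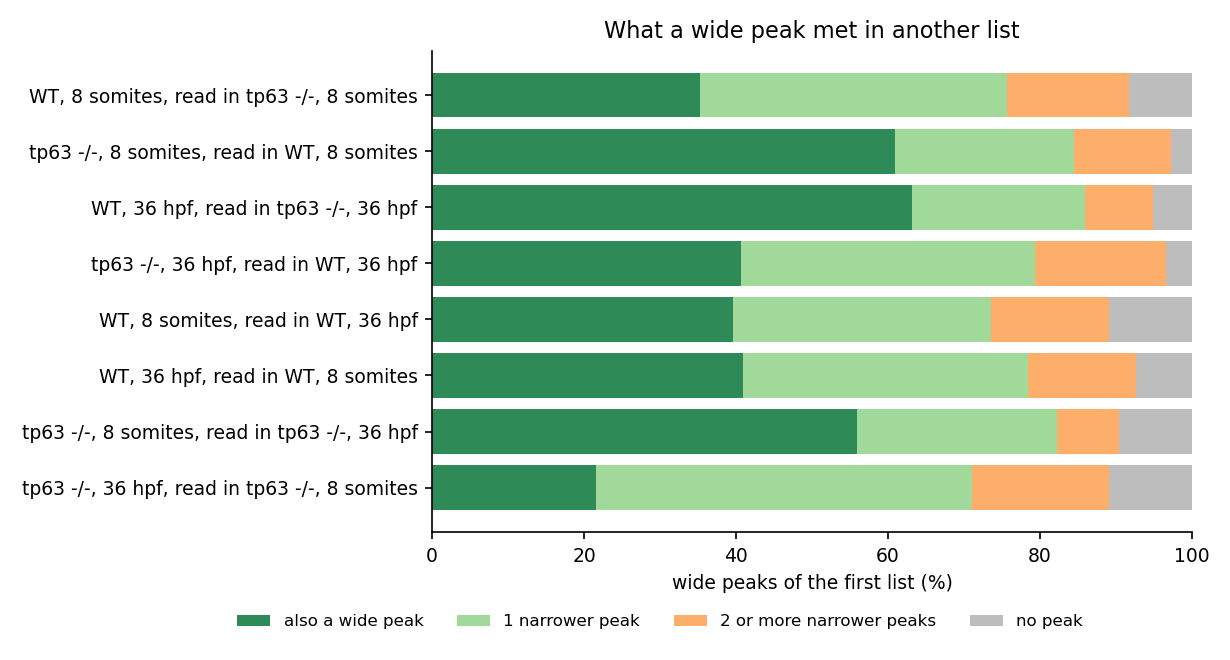
What the wide peaks of one list met in another list, as stacked bars in percent of the wide peaks of the first-named list, for each genotype pair and each stage pair. The dark part, a wide peak in both lists, is longest for WT peaks at 36 hpf read in the mutant (63.1%) and shortest for mutant peaks at 36 hpf read in the mutant at 8 somites (21.6%), and the grey part, no peak, stays at or below 10.96% in the 8 pairs drawn.

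To compare the genotypes on values that the choice had not used, regions wide at one stage were read at the other. The 1997 regions wide at 36 hpf in either genotype were read at 8 somites, where 1703 had a peak in both. Their median width there was 708 bp in WT and 608 bp in the mutant, and the median difference within a region was −35 bp (interval −40 to −30 bp), with the middle 50% of regions between −156.5 and 22 bp. They were narrower in the mutant in 1134 cases (66.6%, interval 64.3 to 68.8%), where 61.7% of all regions with both peaks at this stage were narrower, by a median of 13 bp. In relation to the WT width the median change was −5.56% (interval −6.85 to −4.67%) for the wide regions and −3.94% for all. Wide regions thus shared the narrowing that the mutant list at 8 somites showed throughout, with a slightly higher share.

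The 1319 regions wide at 8 somites were read at 36 hpf in the same way, where 1100 had both peaks. Their median width was 771.5 bp in WT and 833.5 bp in the mutant, with a median difference of 35 bp (interval 28 to 42 bp) and the middle 50% between −21.25 and 162.25 bp. In 365 cases (33.2%, interval 30.5 to 36.0%) the mutant was narrower, where 38.5% of all regions with both peaks were. The median relative change was 4.53% (interval 3.56 to 5.43%) for the wide regions and 3.95% for all regions. At this stage they were wider in the mutant, as the list as a whole was. The direction was the same whichever list had chosen the regions: at 8 somites the medians were −31, −34 and −40 bp for regions wide in WT only, in the mutant only and in both at 36 hpf, and at 36 hpf 43, 34 and 23 bp for regions wide in WT only, in the mutant only and in both at 8 somites.

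Within single regions the turn between stages was common, though not general. Of the 2006 wide regions with 4 peaks, 940 (46.9%) were narrower in the mutant at 8 somites and wider at 36 hpf, and 209 (10.4%) did the opposite. Another 413 were narrower in the mutant at both stages and 428 wider at both. Among all 41041 regions with 4 peaks, 38.7% were narrower and then wider, and 14.0% the opposite. The wide regions were chosen with these same widths, so the 2 shares of each kind are set side by side only as a description.

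**Figure D3:**
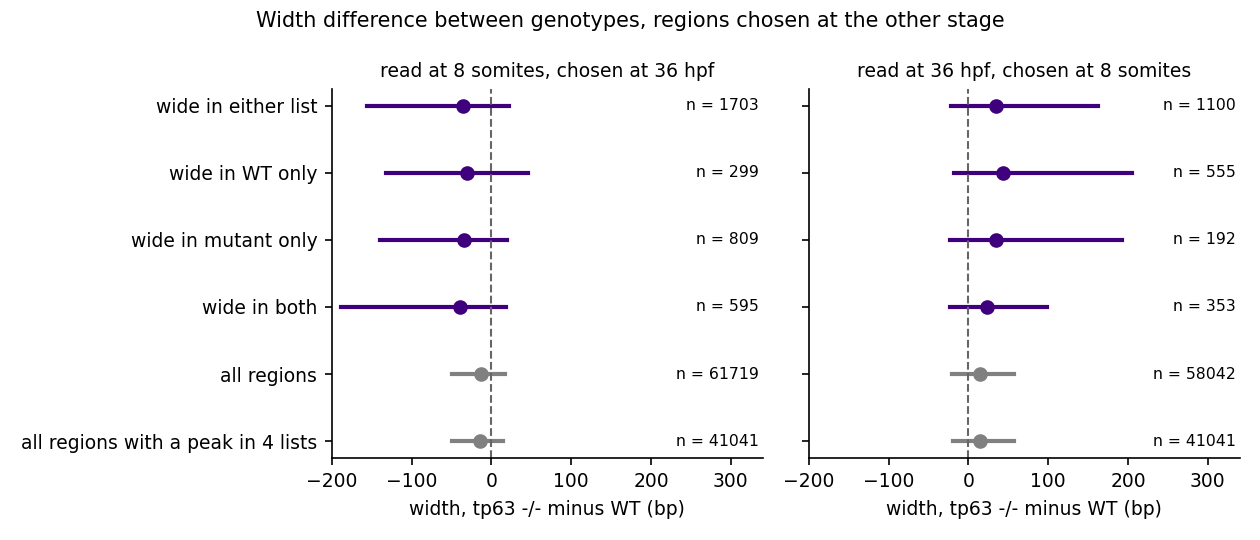
Difference in width between tp63 -/- and WT (horizontal axis, bp) for regions chosen at the other stage, with the median as a point and the middle 50% of regions as a line; purple rows are wide regions split by the list that chose them, grey rows are all regions. The purple points lie between −40 and −31 bp at 8 somites (left) and between 23 and 43 bp at 36 hpf (right), on the same side of 0 as the grey points at −14 or −13 bp and at 14 bp.

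The largest losses of width in the mutant at 8 somites are given first. Only regions with a peak in both genotypes were eligible, so presence in both was fixed by the choice. At chr25:1223238-1224787 the widths were 1497 bp in WT and 425 bp in the mutant at 8 somites, and 634 bp and 1486 bp at 36 hpf. A region on chromosome 16 (chr16:33999068-34000545) measured 1428 bp and 388 bp at 8 somites, and 707 bp and 1455 bp at 36 hpf, so that both were long in WT early and in the mutant late. In WT at 36 hpf each stretch also held a second peak. It measured 205 bp on chromosome 25, 87 bp away, and 634 bp on chromosome 16, 45 bp away. On chromosome 25 the longer form was also the stronger at each stage: the strongest peak stood at 16.9% of the WT list and 28.5% of the mutant list at 8 somites, and at 33.6% and 30.8% at 36 hpf. On chromosome 16 it stood at 22.7% and 24.0% at 8 somites, and at 14.8% and 22.6% at 36 hpf, where the shorter WT form had the higher place.

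Gains of width in the mutant at 8 somites were smaller. The largest lay at chr10:7604952-7606083, with 383 bp in WT and 1132 bp in the mutant, and 269 bp and 263 bp at 36 hpf. At chr5:7233318-7234490 the widest peak was 429 bp in WT, where the stretch held 2 peaks, and 1127 bp in the mutant, and neither list had a peak at 36 hpf. At chr14:49798606-49799681 the values were 359 bp, beside a second peak of 314 bp, and 1041 bp at 8 somites, and 785 bp and 862 bp at 36 hpf. The last of these was strong, at 2.61% of the WT list and 6.84% of the mutant list at 8 somites, while on chromosome 10 the stretch that was longer in the mutant was at a lower place in its list, 29.4%, than the shorter WT peak, 17.3%.

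At 36 hpf the losses of width in the mutant included chr1:48277415-48278573, with 1159 bp in WT and 288 bp in the mutant, after 669 bp and 293 bp at 8 somites. At 8 somites a second peak there measured 294 bp in WT, 19 bp away, and 276 bp in the mutant, 113 bp away. A second one, at chr20:4840465-4841690, had 1208 bp in WT and 407 bp in the mutant, after 444 bp and 385 bp at 8 somites. At 8 somites WT also had peaks of 417 and 220 bp there, with gaps of 124 and 20 bp, while the mutant had a single peak. The region on chromosome 20 was strong throughout, between 2.69% and 5.45% of the 4 lists, so a width difference of −801 bp at 36 hpf came with little difference in rank. The gains included chr19:28245993-28247683, with 591 bp in WT and 1691 bp in the mutant at 36 hpf, after 882 bp and 659 bp. The other lists divided this stretch. A second peak measured 742 bp in WT and 275 bp in the mutant at 8 somites, and 341 bp in WT at 36 hpf. The gaps were 11, 704 and 734 bp in that order. Another gain was at chr2:31973848-31975161, with 267 bp and 1308 bp at 36 hpf, after 1095 bp and 276 bp. There a single short peak in the mutant at 8 somites and in WT at 36 hpf stood at the summit of the long peaks of the other 2 lists.

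**Figure D4:**
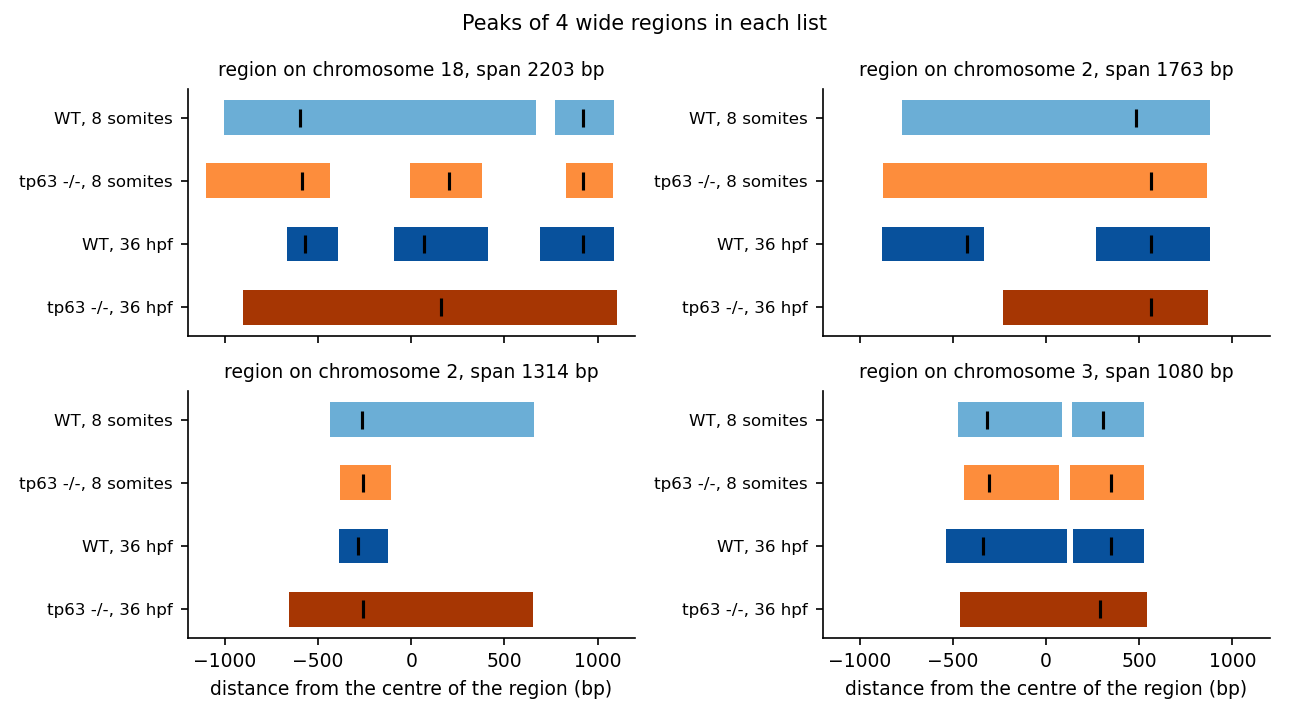
Peaks of 4 wide regions in each list, drawn as bars by distance from the centre of the region (horizontal axis, bp), with black ticks at the summits. The region on chromosome 18 is 1 peak of 2006 bp in the mutant at 36 hpf and 3 separate peaks in 2 other lists, the region on chromosome 2 with a span of 1763 bp is 1 long peak in both lists at 8 somites, the other region on chromosome 2 is long in 2 lists around a shared summit, and the region on chromosome 3 is 1 peak only in the mutant at 36 hpf.

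Some long peaks were several neighbouring peaks in another list. For 891 of the 2562 regions (34.8%, interval 33.0 to 36.6%), a wide peak of one list met 2 or more peaks in at least 1 other. No such share was computed over other regions, and a longer peak has more room to meet several peaks. Whether wide regions are broken up more than others was therefore not tested. The shares by list count the regions wide in some other list that also had a peak in the list read. Of these, 369 of 2037 (18.1%) were broken up in WT at 8 somites and 429 of 2124 (20.2%) in the mutant at 8 somites. At 36 hpf they were 408 of 2085 (19.6%) in WT and 202 of 1650 (12.2%) in the mutant. The pieces lay close together, with median gaps of 72, 73, 59 and 46 bp in the same order, and middle distances between their summits of 520, 498, 485 and 516 bp. The shortest gap between any 2 peaks was 11 bp in each of the 4 lists. A gap of that length is thus enough in these lists for a stretch to count as 2 peaks, neither of which need be wide.

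The region at chr3:11860777-11861856 shows this for one of the strongest peaks of the data. In WT at 8 somites a peak of 389 bp at rank 24 stood 56 bp from a weaker neighbour of 556 bp. In the mutant at 8 somites the pair measured 392 bp, at rank 13, and 506 bp, with a gap of 64 bp. At 36 hpf WT again had a pair, of 378 bp at rank 55 and 652 bp, with a gap of 33 bp, and the mutant had 1 peak of 1003 bp at rank 148. The strong summit was present in all 4 lists, and only the join to its neighbour made the region a wide one.

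The summit of a wide peak was less often central than that of other peaks. The distance from the summit to the nearer edge was a median of 24.8% of the width in WT at 8 somites, 24.7% in the mutant at 8 somites, 26.4% in WT at 36 hpf and 27.5% in the mutant at 36 hpf, where 50% would be the centre. For the other peaks the medians lay between 40.4 and 41.5%. The summit fell within the outer 25% of the peak at either end for 50.4, 50.5, 46.7 and 43.3% of wide peaks, and for 5.34, 5.51, 7.56 and 8.02% of the others. There was no preferred side, with 49.7 to 50.2% of summits left of the centre. Summits placed anywhere along a peak with equal chance would give 25% for the median distance and 50% for the outer share. The summits of wide peaks were thus spread along the peak, near those values, while those of the other peaks lay nearer the centre.

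Within a region the strongest summit usually stayed in place. Between the genotypes its median shift was 32 bp at 8 somites and 23 bp at 36 hpf, and between the stages 34.5 bp in WT and 36 bp in the mutant. A shift of over 200 bp was found in 16.1% of wide regions between genotypes at 8 somites, 15.6% at 36 hpf, and 20.4% between stages in WT and in the mutant alike. In the other regions it was found in 1.60 to 2.55%, although these have less room for a shift. Where the region was wide in both lists of a pair, 14.7% and 12.9% shifted by over 200 bp between genotypes at 8 somites and at 36 hpf.

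Wide peaks were stronger than most, but the strongest peaks were mostly not wide. The median wide peak stood at 20.5% of its list in WT at 8 somites, 22.3% in the mutant at 8 somites, 19.2% in WT at 36 hpf and 18.8% in the mutant at 36 hpf. The −log10 p behind the rank is not independent of width or depth. In the strongest decile 3.53, 2.41, 4.11 and 6.71% of peaks were wide, and in the weakest 0.33, 0.12, 0.20 and 0.35%. Wide peaks weaker than the median of their list numbered 201, 107, 171 and 271, or 16.4 to 18.7% of them. By fold enrichment over background, the median wide peak reached 9.02, 8.44, 7.73 and 7.77 and the median of all peaks 7.84, 7.33, 6.11 and 6.48, so the advantage was smaller on this scale, and between 24.1 and 33.1% of wide peaks had a fold below the median of their list.

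Of the 1000 highest-ranked peaks of each list, 38 of the 963 on the chromosomes studied were wide in WT at 8 somites, 29 of 965 in the mutant at 8 somites, 44 of 959 in WT at 36 hpf and 75 of 963 in the mutant at 36 hpf. The mutant at 36 hpf had the highest share, 7.79%, as it had in every decile of rank. Wide peaks covered 2.97, 2.13, 3.34 and 5.36% of the bases in peaks on these chromosomes.

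**Figure D5:**
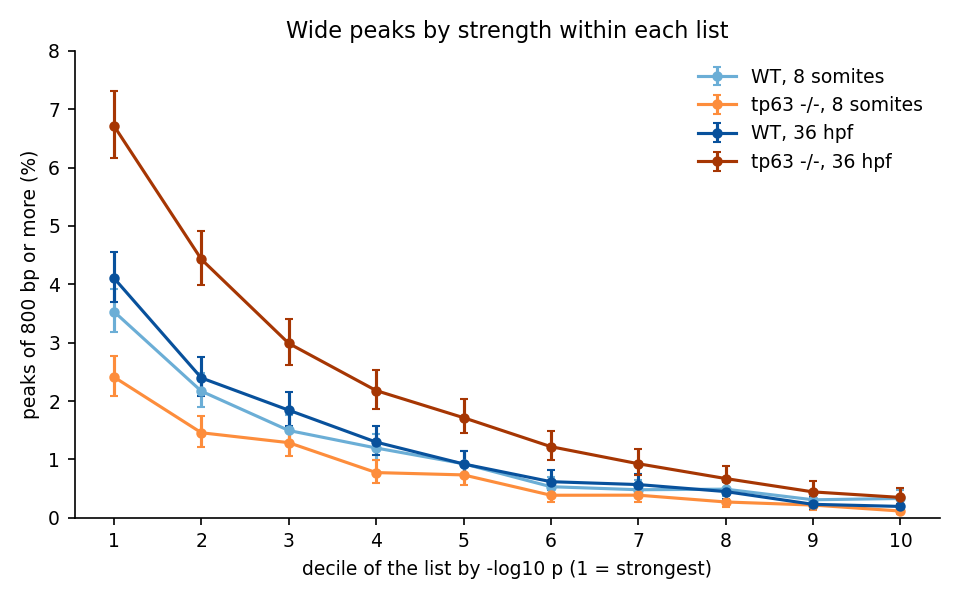
Share of peaks of 800 bp or more (vertical axis, percent, with 95% Wilson intervals) in each decile of a list by −log10 p (horizontal axis, 1 is the strongest), 1 line per list. The share falls from 6.71 to 0.35% in the mutant at 36 hpf, whose points are the highest in every decile, and from 2.41 to 0.12% in the mutant at 8 somites.

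The strongest of the wide regions stayed near the top of every list. At chr10:43200167-43200975 the widths were 788 bp in WT and 802 bp in the mutant at 8 somites, and 803 bp and 786 bp at 36 hpf, with ranks 33, 18, 75 and 47 in the same order. The region passed the minimum in 2 lists and fell just short of it in the others, although its 4 widths differ by at most 17 bp. At chr5:906366-907317 the widths were 879, 897, 888 and 952 bp and the ranks 570, 284, 49 and 46, so that the place in the list was higher at 36 hpf than at 8 somites in both genotypes. Not far from it, at chr5:1101814-1102816, the widths were 995 and 1001 bp at 8 somites, and 754 and 950 bp at 36 hpf, with ranks 174, 199, 47 and 192. In WT at 36 hpf a second peak of 191 bp lay 19 bp away.

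Some of the strongest regions were wide in the mutant at 36 hpf only. At chr15:44441802-44442652 the widest peaks were 406, 365 and 402 bp in WT at 8 somites, the mutant at 8 somites and WT at 36 hpf, and 851 bp in the mutant at 36 hpf. In the first 3 of these lists a second peak of 278, 284 and 243 bp lay 39, 48 and 28 bp away, so the stretch was divided there. The ranks were 59, 86, 15 and 17 in that order. At chr24:39338897-39339718 the widths were 639, 378 and 653 bp, and 822 bp in the mutant at 36 hpf, at ranks 83, 11, 85 and 503. There the list with the shortest widest peak had the highest rank, and that with the longest the lowest. In the mutant at 8 somites a second peak of 216 bp lay 39 bp from the first. A region on chromosome 13 differed from these. At chr13:45387115-45388183 the longest forms were in the mutant at 8 somites (1030 bp) and in WT at 36 hpf (1048 bp), against 691 bp in WT at 8 somites and 707 bp in the mutant at 36 hpf, with ranks between 27 and 198. In the mutant at 36 hpf a second peak of 336 bp lay 26 bp away.

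Read at the other stage, ranks differed little between the genotypes. For regions wide at 36 hpf, the place in the list at 8 somites was a median of 2.35 percentage points lower in strength in the mutant (interval 1.95 to 2.75), where all regions gave 3.42. For regions wide at 8 somites, the difference at 36 hpf was 0.59 points (interval 0.34 to 1.01), where all regions gave 1.38. The lists differ in length, and with lists cut to the same number of peaks the values became 0.27 and −0.22 points, so that the second changed sign. The ranks therefore gave no steady direction at 36 hpf, unlike the widths.

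Few wide regions were found in a single list, and these were weaker. The highest-ranked was at chr12:14427756-14428596, with a peak of 841 bp at rank 7703, or 9.09%, of WT at 36 hpf. It was followed by chr9:12120236-12121129, of 894 bp at 51.8% of the same list, and chr6:547016-547822, of 807 bp at 53.4% of WT at 8 somites. After the first one, the wide regions of a single list thus lay in the weaker part of their lists. There were 69 such regions, 2.69% of the wide regions, where the share over all regions was 34.2%. Of these, 32 were in WT at 8 somites, 23 in WT at 36 hpf, 10 in the mutant at 36 hpf and 4 in the mutant at 8 somites. Over all regions the same patterns counted 18041, 11562, 7466 and 8649. The WT lists thus came first in the same order, and the 2 mutant lists were in the opposite order.

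Wide regions were spread over all 25 chromosomes. Their share of the regions of a chromosome ran from 1.28% on chromosome 22 (48 of 3741, interval 0.97 to 1.70%) to 2.47% on chromosome 5 (182 of 7363, interval 2.14 to 2.85%). The nearest other wide region lay a median of 138 kb away, with the middle 50% between 51.6 and 326 kb, and 114 regions (4.45%) had one within 10 kb. Around a wide region there were a mean of 6.20 other regions within 25 kb, compared with 5.98 around the others. Among regions with a peak in all lists the means were 6.27 and 6.36, so by this measure the wide ones did not lie in denser surroundings.

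In windows of 100 kb, 1903 held 1 wide region, 259 held 2, 39 held 3 and 6 held 4. These 6 windows were singled out after their counts were seen. They lay at chr5:100001-200000, chr6:14400001-14500000, chr8:100001-200000, chr18:1-100000, chr18:1500001-1600000 and chr19:48300001-48400000, so that 3 of the 6 are within the first 200 kb of a chromosome. In the same order these windows held 23, 12, 19, 26, 14 and 15 regions of any width, so the 3 at chromosome starts held the most. Whether the number of wide regions follows the number of all regions in a window was not tested. Wide regions of one window did not share a pattern. In the window at the start of chromosome 18, chr18:11189-12535 was wide in all lists (879, 961, 967 and 1269 bp in WT and mutant at 8 somites and WT and mutant at 36 hpf), while chr18:45246-46364 was long at 8 somites (996 and 1058 bp) and shorter at 36 hpf (611 and 646 bp). In the window on chromosome 8, chr8:150208-151130 was wide in all lists (859, 822, 870 and 817 bp), and chr8:179492-180351 at 8 somites only (845 and 840 bp, then 455 and 301 bp).

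The regions here have no gene names, since no annotation of the assembly of the lists was used. Their span, from the first to the last base of any peak joined, had a median of 916 bp and reached 2835 bp. Another 664 regions spanned 800 bp or more through joined peaks, none of which was itself wide, and these are not part of the 2562.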

How the data were processed

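ATAC-seq had been done on 8 libraries, 2 for each of WT and tp63 -/- embryos at 8 somites and 36 hpf. The authors aligned reads to GRCz10 (danRer10), removed pairs separated by more than 2 kb, took the Tn5 cut site of each read and combined replicates with the IDR framework (idr 0.1 version) into 1 list per group. Bowtie2 and SAMtools are named in the submitters' processing notes, without a role. The peak caller for these lists is not given in the sources used here. The deposited columns used were the position and summit of each peak, its fold enrichment (a ratio to the background), its −log10 p-value and its IDR score on a −log10 scale, with a global IDR of at most 0.1 in every line. The lists hold no counts of reads, so the depth of each library is not known beyond the nominal yield in the paper. Lists were not normalized to each other.

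Width was column 3 minus column 2. Rank was by deposited −log10 p within a list, and a region took the rank of its strongest peak and the width of its widest. Union regions were made in Python 3.11.15 with pandas 2.3.3 and numpy 2.4.6, gave the same regions as bedtools 2.31.1 and were tested on simulated data. Intervals are Wilson intervals for shares and binomial order-statistic intervals for medians (scipy 1.17.1), at 95%. Figures were drawn with matplotlib 3.10.9.

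Regions were named by a rule: the 3 widest peaks and the 3 highest-ranked wide regions of each list, the 3 largest width differences in each direction at each stage, the 3 highest-ranked regions of a single list and the 3 nearest the minimum on each side. Width differences for this rule were taken only among wide regions with a peak in both genotypes at that stage. The regions, lists and rules were chosen with earlier results of these data known. Alternatives were a minimum of 700 or 1000 bp, an IDR of 0.01, an overlap of 50%, equal list sizes, summed widths, equal shares of each list, rank by fold enrichment and chromosome 4 kept whole. Distances to genes, base composition, motifs and sequences were not analysed here, because the reference tables were of another assembly. No column of another series was present (0).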

Additional observations from a re-analysis of the deposited data

Results flagged for a closer look

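The difference in width between the mutant and WT lists at the wide regions had the opposite sign at 8 somites and at 36 hpf. The median difference, mutant minus WT, was −35 bp at 8 somites for regions chosen as wide at 36 hpf, and 35 bp at 36 hpf for regions chosen as wide at 8 somites. There was 1 list per genotype and stage, so neither this difference between the stages nor an effect of genotype was tested. The lists as wholes went the same way, by medians of −13 and 14 bp, and the starting material (single embryos at 8 somites, pools at 36 hpf) goes with the stage. The part of sequencing depth was not tested.

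Peaks of 800 bp or more were also present on sequences that the comparisons left out. On chromosome 4 from 30 Mb on, 28 of 1149 regions held one (2.44%, interval 1.69 to 3.50%), and on unplaced scaffolds 118 of 3002 did (3.93%, interval 3.29 to 4.69%), beside 1.92% on the chromosomes studied. The mitochondrial genome had 2 regions, both wide. One of these held a peak of 3661 bp in the mutant at 8 somites alone, and the other held peaks of 3375 bp in WT at 8 somites, 3358 bp in the mutant at 8 somites and 3098 bp in WT at 36 hpf. There was no control sample to compare these with.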

How the results depend on the processing

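Of 69 values recomputed under an alternative, 39 stayed within the interval of the reported value or, for the number of regions, within 1.5 times of it. Widths kept their direction under every alternative run. With a minimum of 700 bp there were 5370 wide regions, 73.8% of them in all lists, 39.6% of wide WT peaks at 8 somites and 45.1% of wide mutant peaks at 36 hpf were shared, and the width difference at 8 somites was −28 bp. With 1000 bp there were 565 regions, 84.2% of them in all lists, with shared shares of 21.5% (WT) and 40.4% (mutant) at 8 somites and 35.6% (mutant at 36 hpf), a width difference of −53.5 bp and a rank difference of 1.46 points at 8 somites. At an IDR of 0.01, 72.2% were in all lists, 23.2% were broken up, and the rank differences were 3.41 and 1.01 points. With equal list sizes 30.7% were broken up, and the rank differences were 0.27 at 8 somites and −0.22 at 36 hpf, the latter of the opposite sign. Ranked by fold enrichment they were 1.19 and 2.82 points. With summed widths the shared shares were 46.5% (WT) and 73.5% (mutant) at 8 somites, then 72.9% and 52.6% at 36 hpf. With the same top share of each list these were 44.5, 53.9, 46.3 and 51.0%. Counting only peaks over the strongest summit, an alternative chosen after seeing the data, 75.8% of regions were in all lists. The share wide in 1 list only was 56.5% with equal top shares (also chosen after seeing the data). The cause of these changes was not tested. The equal list sizes leave fewer peaks in every list but the shortest. No paired analysis was possible because each list was built from both replicates and holds no value per replicate, and for the same reason no replicate could be left out. Checks on distance to genes and base composition were not run for lack of an annotation and genome of the same assembly.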
